A study of Rattus norvegicus with 28 samples.

Results

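The comparison described here is that between tibialis anterior muscles that received a short hairpin RNA (shRNA) against the vitamin D receptor and the opposite muscles of the same rats, which received a scramble shRNA. Its members were taken from the animal identifiers and receptor status in the sample labels, and comprise all 14 muscles of animals 423 to 429, 7 labelled shRNA (right legs, called VDR-KD) and 7 labelled scramble (left legs, called control), of 28 muscles in the series. The other 14 muscles come from a second set of 7 animals, in which the right leg received a plasmid for the mouse receptor (VDR-OE) and the left leg its empty plasmid. All animals were electrotransferred in both legs and given carprofen, and RNA was counted per gene by RNA-Seq. The study's methods, which report the VDR-OE animals, give male Wistar rats of 8 weeks, acclimatised for 1 week on standard chow, and killed after an overnight fast 10 days after electrotransfer. They name lentiviral shRNA particles as the material injected, and the sources used here do not otherwise describe the shRNA animals. The shRNA was always on the right, so leg side and shRNA cannot be told apart. The labels speak of a knock-out although an shRNA lowers a transcript rather than deleting its gene, and VDR-KD below names the libraries labelled as shRNA legs, whatever their Vdr level.

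The vitamin D receptor is a nuclear receptor which, bound to the active form of vitamin D and to a retinoid X receptor, attaches to response elements in DNA and changes transcription of nearby genes. In adult skeletal muscle its transcript is scarce, and much of its known expression in muscle tissue is in satellite cells, regenerating fibres and immune cells. An shRNA is processed to a small interfering RNA that guides degradation of the matching transcript, so the first question is whether Vdr was lower in the legs that received it. Electrotransfer, in which electric pulses drive a construct into muscle fibres, reaches only a share of the fibres of a muscle, and bulk RNA pools transfected fibres with all other cells.

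Total counts lay between 36684220 and 40958133 in VDR-KD muscles and between 38284146 and 45899121 in control muscles. At this depth a count of 10 in the median library equals a CPM (counts scaled to a common library size) of 0.251, and 14652 genes exceeded this level in at least 7 of the 14 muscles and were tested. No 2 muscles of a group agreed within sampling noise (lowest chi-square per degree of freedom 43.7). Symbols were available for 1998 identifiers, taken from a supplementary table of the study that ranks genes by its VDR-OE comparison, and 1887 of them were among the genes tested here. They were thus selected on other muscles. Neither fast fibre nor oxidative phosphorylation genes had a symbol, so the tissue label was not checked against fibre markers. The one gene used in its place was Phka1, the muscle subunit of phosphorylase kinase, which was at 106 CPM or more in all muscles.

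Vdr (ENSRNOG00000054420) did not differ between VDR-KD and control muscles beyond the spread between animals. The reads on Vdr in the control and the VDR-KD leg were 188 and 228 in animal 423, 266 and 112 in animal 424, 418 and 111 in animal 425, and 54 and 249 in animal 426. They were 71 and 126 in animal 427, 137 and 94 in animal 428, and 114 and 90 in animal 429. In normalised units, animals 424 and 425 went from 7.11 to 2.29 and from 8.75 to 3.13 CPM, whereas animal 426 went the other way, from 1.47 to 4.66 CPM. Vdr was therefore lower in the VDR-KD leg of 4 animals and higher in that of 3, and the groups overlapped over most of their range.

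Across animals, Vdr was 4.42 ± 2.66 CPM (SD, n = 7) in control and 3.46 ± 1.71 CPM (SD, n = 7) in VDR-KD muscles. The log2 fold change was -0.26 ± 0.4 (SE) with the animal as a block, with a 95% interval from -1.17 to 0.66, and its adjusted p was 0.839 in edgeR's quasi-likelihood test. Without the block the log2 fold change was -0.36 (adjusted p = 0.734 in the same test). The within-animal log2 ratio averaged -0.24 ± 1.19 (SD, n = 7; exact two-sided permutation over signs, p = 0.609, where 0.0156 is the smallest possible). An exact two-sided permutation of the 14 muscles without regard to animal gave p = 0.577. The interval covers 0 and changes in either direction. The log2 fold change rested on animals 424 and 425, since it was -0.01 without the former and -0.03 without the latter, and it was -0.56 without animal 426. The Vdr level thus does not check the shRNA label, and in animals 423, 426 and 427 it went against it.

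**Figure D1:**
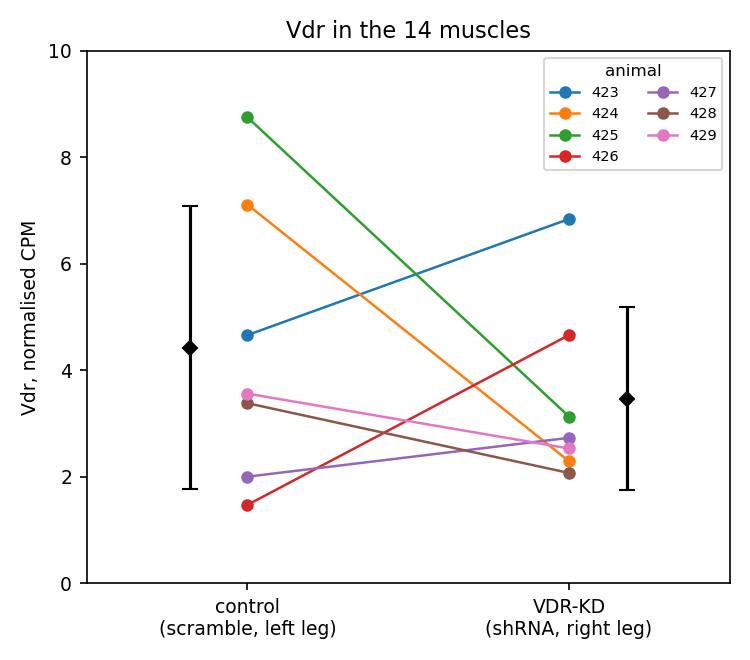
Vdr in normalised CPM (vertical axis) in the control and VDR-KD leg of each animal, with a line joining the legs of 1 animal; black diamonds and bars give mean ± SD of 7 muscles. Lines fall in 4 animals and climb in 3, and the range from 2.07 to 6.84 CPM in VDR-KD muscles lies within the control range from 1.47 to 8.75 CPM.

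The other members of vitamin D signalling could be followed only in part. Of 33 entries in the list, 4 had a symbol, and the 3 that were tested, Vdr among them, did not pass the test. Pdia3, a disulphide isomerase of the endoplasmic reticulum that is also described as a membrane binding protein for vitamin D, ran from 105 to 218 CPM (median 189) in control and from 116 to 289 CPM (median 225) in VDR-KD muscles. Its log2 fold change was 0.27 ± 0.25 (SE) and it was higher in 5 of 7 animals. Dhcr7, the reductase that turns the precursor of vitamin D into cholesterol, ran from 2.34 to 6.33 CPM (median 4.72) in control and from 2.84 to 5.14 CPM (median 4.47) in VDR-KD muscles, with a log2 fold change of -0.09 ± 0.23 (SE). The groups overlapped for both genes. Nr1i3, a nuclear receptor related to the vitamin D receptor, had 0 to 9 reads per muscle and fell under the filter.

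Across all genes, 0 of 14652 passed an adjusted p of 0.05 in edgeR's quasi-likelihood test with the animal as a block (0% called), and the smallest adjusted p was 0.803. At an unadjusted p of 0.05 the same test had 395 genes (2.7% of those tested), 102 higher (0.696%) and 293 lower (2%) in VDR-KD muscles. Without the block it also called 0 genes, with a smallest adjusted p of 0.681 and 647 genes at an unadjusted p of 0.05 (4.42%), 305 higher (2.08%) and 342 lower (2.33%). The likelihood ratio test with the block called 0 (401 at the unadjusted threshold, 2.74%) and DESeq2 with the block called 0 (625 at the unadjusted threshold, 4.27%). The smallest adjusted p of DESeq2 was 0.0784, for ENSRNOG00000019050, which has no symbol here and averaged 27.9 CPM in control and 1.88 CPM in VDR-KD muscles, but had an unadjusted p of 0.0602 in edgeR's quasi-likelihood test. Pairing by animal therefore made no difference to the number of genes called.

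The same number of animals and a like depth gave calls in the other arm, where the quasi-likelihood test with the block called 1037 of 14526 genes between VDR-OE and its own control muscles (7.14%), 593 higher (4.08%) and 444 lower (3.06%). The median SE of a log2 fold change was 0.179 in the VDR-KD comparison and 0.119 in the VDR-OE comparison, against median absolute log2 fold changes of 0.157 and 0.186. Within-animal ratios were more scattered in the shRNA animals, with a median SD over genes of 0.481 on the log2 scale against 0.319. The scatter was greatest among VDR-KD legs. The median SD of log2 CPM was 0.357 among them and 0.277 among their control legs, and 10653 of 14652 genes (72.7%) had the larger SD in VDR-KD legs. Leaving out 1 animal at a time, this share ran from 63.8% (without animal 423) to 74.5% (without animal 428).

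None of the named genes that differed the same way in most animals passed the test. Of all genes tested, 863 (5.89%) were lower in at least 6 of 7 animals, a share no larger than random signs would give on average. Ranked by p, the first 10 of these with a symbol had unadjusted p-values from 0.0116 to 0.0291 and an adjusted p of 0.803 each in edgeR's quasi-likelihood test. Stbd1, which tethers glycogen to membranes, was at 158 to 257 CPM (median 215) in control and 101 to 201 CPM (median 156) in VDR-KD muscles. It was lower in 7 of 7 animals, with a log2 fold change of -0.41 ± 0.14 (SE), although the groups overlapped between 158 and 201 CPM. Emc1, a subunit of the complex that inserts membrane proteins at the endoplasmic reticulum, was at 56.9 to 64.2 CPM (median 61.8) in control and 48.7 to 62.5 CPM (median 52.6) in VDR-KD muscles. Its log2 fold change was -0.2 ± 0.078 (SE) and it too was lower in 7 of 7 animals.

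Zfhx2, a zinc finger homeobox transcription factor, and Spats1 were also lower in 7 of 7 animals, with log2 fold changes of -0.33 ± 0.11 and -0.77 ± 0.25 (SE). Ogfod1, a hydroxylase that modifies a ribosomal protein, ran from 10.4 to 13.8 CPM (median 13.4) in control and from 8.29 to 12.3 CPM (median 9.29) in VDR-KD muscles and was lower in 6 of 7 animals. The others were the histone gene Hist1h2bcl1, the MAP kinase phosphatase Dusp16, Tmcc1, the mitochondrial tRNA-modifying enzyme Osgepl1 and the tyrosine phosphatase Ptpn21, with log2 fold changes from -0.41 to -0.26. Reads on Hist1h2bcl1 can be shared with near-identical histone genes, so its value is uncertain.

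In the other direction, 749 genes (5.11%) were higher in at least 6 of 7 animals, again no more than random signs would give on average. Ranked by p, the first 10 of these with a symbol had unadjusted p-values from 0.0125 to 0.0401, again with an adjusted p of 0.803 each in edgeR's quasi-likelihood test. Gpr34, a receptor of macrophages and microglia, was at 1.25 to 4.54 CPM (median 2.47) in control and 1.74 to 7.54 CPM (median 3.24) in VDR-KD muscles, with a log2 fold change of 0.73 ± 0.26 (SE). It was lower in the VDR-KD leg of animal 425 and higher in those of the other 6 animals, and the groups overlapped.

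Meis3, a homeobox transcription factor, ran from 2.5 to 4.52 CPM (median 3.08) in control and from 3.54 to 6.42 CPM (median 4.26) in VDR-KD muscles, with a log2 fold change of 0.46 ± 0.16 (SE). Pif1, a DNA helicase, and Zfp458, a zinc finger protein, were higher in 7 of 7 animals, by 0.72 ± 0.24 and 0.36 ± 0.15 (SE) on the log2 scale, though Pif1 was at 0.748 CPM at most. Wnt10a, a Wnt ligand, had the largest of these log2 fold changes at 1.3 ± 0.41 (SE), from 2 to 74 reads per muscle. Others were Hsf2bp, the cadherin Cdh24, Fam217b and AABR07043654.1, with log2 fold changes from 0.31 to 0.77.

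The smallest p without the animal block, among genes not yet named, picked out 5 further named genes, again with none past the test. With the block they also had an unadjusted p under 0.05, from 0.0134 (Dnajb5) to 0.0407 (Uqcc2) in edgeR's quasi-likelihood test. All but Alg3 moved one way in fewer than 6 of 7 animals, which kept them off the lists above. Elastin (Eln), the core of elastic fibres, was at 59.1 to 140 CPM (median 88.3) in control and 39.2 to 77.6 CPM (median 62.2) in VDR-KD muscles. Its log2 fold change was -0.57 without the block and -0.56 ± 0.22 (SE) with it, and it was lower in 5 of 7 animals. Dnajb5, a heat shock co-chaperone, was at 144 to 285 CPM (median 187) in control and 90.8 to 181 CPM (median 118) in VDR-KD muscles, with a log2 fold change of -0.59 ± 0.19 (SE). The control leg was higher in 5 animals for Dnajb5, and in animals 423 and 425 the legs were nearly level. The remaining 3 were Ctla2a, a cysteine protease inhibitor (log2 fold change 0.72), Alg3, a mannosyltransferase (-0.28), and Uqcc2, an assembly factor of respiratory complex III (-0.43). The adjusted p of each of the 5 was 0.681 without the block and 0.803 with it in edgeR's quasi-likelihood test.

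**Figure D2:**
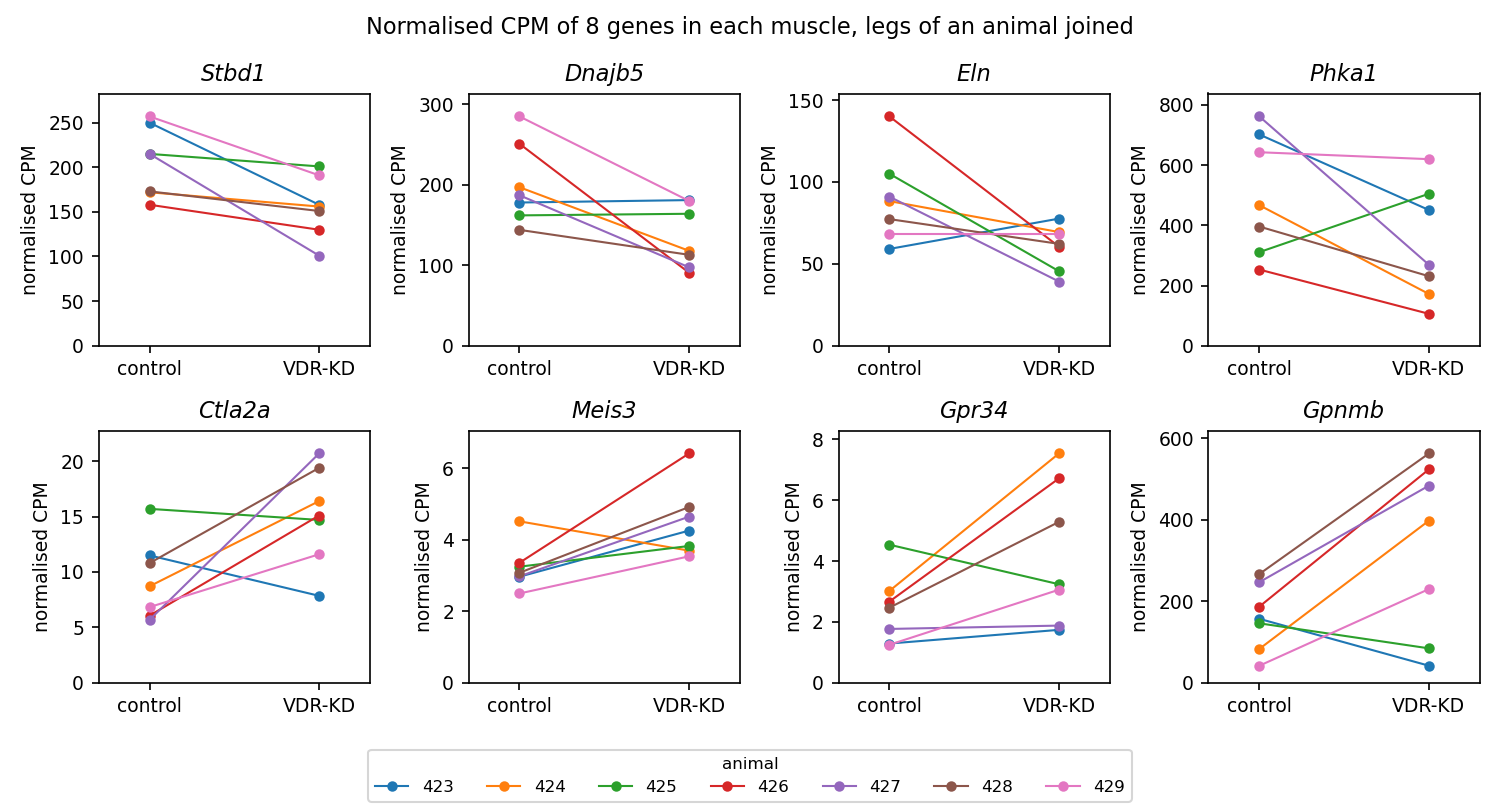
Normalised CPM (vertical axes, from 0) of 8 genes in the control and VDR-KD leg of each animal, with a line joining the legs of 1 animal. Stbd1 falls in all 7 animals, while the lines of Gpnmb, a marker of macrophages, climb in 5 animals and fall in 423 and 425; each pair of groups overlaps.

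Overlap of the groups was the rule over the whole table, and 4 genes (0.0273% of those tested) had VDR-KD and control muscles that did not overlap, 3 higher (0.0205%) and 1 lower (0.00683%), and none of the 4 had a symbol. In 120 genes (0.819%) all 7 animals lay on one side, 54 higher (0.369%) and 66 lower (0.45%). Random signs would put all 7 animals on one side with a probability of 0.0156, which is above this share. Of the genes with a symbol, 8 of 1887 did so, 2 higher and 6 lower. Among genes without a symbol, ENSRNOG00000013653 was among those with the lowest p and averaged 269 ± 46.1 CPM in control and 177 ± 54.6 CPM in VDR-KD muscles (SD, n = 7), lower in 7 of 7 animals. Its log2 fold change was -0.64 ± 0.16 (SE, adjusted p = 0.803 in edgeR's quasi-likelihood test).

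Markers of leucocytes were the named genes with the widest differences between muscles. Of 69 entries in the lists for macrophages and monocytes and for T, B and NK cells, 20 had a symbol and were tested, and all 20 had a positive log2 fold change, between 0.43 and 0.97 with a median of 0.6. The median was 0.01 over all genes tested and 0.1 over all genes with a symbol. A positive log2 fold change was found in 7556 of all 14652 genes tested and in 1238 of the 1887 with a symbol. The 20 markers had a median log2 fold change of 1.24 after VDR-OE. Of the 590 genes called higher after VDR-OE and tested here, 491 were positive in VDR-KD, so positive signs were not particular to the markers. None of the 20 passed edgeR's quasi-likelihood test with the block or without it. Cd8b, a chain of the T-cell coreceptor, ran from 1.87 to 9.49 CPM (median 3.91) in control and from 1.47 to 21.6 CPM (median 12.9) in VDR-KD muscles. Gpnmb, a glycoprotein of activated macrophages, ran from 41.8 to 267 CPM (median 157) in control and from 41.9 to 563 CPM (median 398) in VDR-KD muscles.

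Summed over the 20 markers, levels ran from 717 to 2770 CPM in control (median 1460) and from 643 to 3970 CPM in VDR-KD muscles (median 3180). The VDR-KD legs of animals 424, 426, 427 and 428 were above every control leg, and that of animal 423 was below every control leg. No marker was at 0 in any muscle, and the lowest value was 0.198 CPM, for the macrophage receptor Trem2. In bulk muscle, more cells of a type and more RNA per cell cannot be told apart. Without animal 425, 13 of the 20 markers were higher at an unadjusted p under 0.05, beside 662 of all 14495 genes tested. Without animal 423 these were 8 of 20, beside 1496 of all 14534 genes. The median log2 fold change of the markers was 0.94 and 0.83 in these fits. With every animal kept, 102 of all 14652 genes were higher at that threshold, so the rise was not confined to the markers. Without any one of animals 424, 426, 427 and 428 none of the 20 passed that threshold, and their median lay between 0.41 and 0.6.

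The leading component of variation among the 14 muscles held 50.1% of the variance of log2 CPM, and all 20 leucocyte markers lay on its negative side. The share of all genes on that side is not given here, so the count is not a trait of leucocyte markers alone. Over the 1887 genes with a symbol, mean log2 CPM in VDR-KD legs ran from 3.11 (animal 423) to 3.9 (animal 426). Scores were negative in 4 VDR-KD and 3 control muscles and positive in 3 VDR-KD and 4 control muscles. The 4 lowest scores, from -57.7 to -42.6, were those of the VDR-KD legs of animals 424, 426, 427 and 428, below the lowest control leg (-29.6), and the highest, 80.1, was that of the VDR-KD leg of animal 423. The VDR-KD leg scored below its own control leg in 5 of 7 animals, all but 423 and 425. The mean log2 CPM of the leucocyte markers was 4.67 to 6.5 in the 7 muscles with negative scores and 3.95 to 5.02 in the 7 with positive scores. The 10 most abundant genes of a muscle took 15.4 to 24.8% of the counts in the former and 22.9 to 27.7% in the latter, and normalisation factors were 0.961 to 1.32 and 0.784 to 0.954. The leucocyte level was then added as a covariate, chosen after seeing the data. With the block, 0 genes were called by edgeR's quasi-likelihood test (413 at the unadjusted threshold, 207 higher and 206 lower). Without the block 0 were called as well (541 at the unadjusted threshold, 230 higher and 311 lower). Since 0 genes were also called without the covariate, these fits cannot show what part leucocyte level had in the comparison of legs.

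Lists of the immune response and of proliferation had medians on the same side as the leucocyte markers. Of 5 named interferon response genes, among them the transcription factors Irf1 and Irf8 and the peptide transporter Tap2, 4 had positive log2 fold changes, and their median was 0.43. Of 11 tested cytokine and chemokine genes, 9 were positive with a median of 0.43. Of 27 cell cycle genes, 26 were positive with a median of 0.29. These counts stand beside 1238 positive of 1887 genes with a symbol, and beside 491 positive of the 590 genes called higher after VDR-OE. After VDR-OE the median log2 fold changes were 0.95 for the interferon list, 0.85 for cytokines and chemokines and 0.87 for the cell cycle list. Cyclin B1 (Ccnb1), which drives entry into mitosis, ran from 3.78 to 7.47 CPM (median 4.33) in control and from 3.45 to 11 CPM (median 8.2) in VDR-KD muscles, and was higher in 5 of 7 animals. None of these genes passed the test or had an unadjusted p under 0.05 with the block. In animals 423 and 425 the mean ratio of the cell cycle list was negative (-0.63 and -0.65), as it was for the leucocyte markers (-0.72 and -1.38).

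Genes of the extracellular matrix had medians nearer to 0. Their signs stand beside those of all genes with a symbol, of which 1238 of 1887 were positive. They also stand beside the genes called higher after VDR-OE, of which 491 of 590 were positive in VDR-KD. After VDR-OE the medians were 0.77 for core matrix genes, 0.66 for matrix-modifying enzymes and 0.71 for fibro-adipogenic and fibroblast markers. The median log2 fold change was 0.05 over 43 core matrix genes, of which 25 were positive and 18 negative, 0.12 over 19 matrix-modifying enzymes, of which 17 were positive, and 0.08 over 8 fibro-adipogenic and fibroblast markers, of which all 8 were positive. Decorin (Dcn), a small proteoglycan that marks fibroblasts, was at 214 to 414 CPM (median 308) in control and 243 to 423 CPM (median 339) in VDR-KD muscles. Elastin was the 1 core matrix gene with an unadjusted p under 0.05. In animal 425 the core matrix list was lower in the VDR-KD leg (mean log2 ratio -1.07), and in animal 426 it was higher (0.73). Without animal 425, 37 of the 43 were positive and the median was 0.24. In that fit 9 of the 43 were higher at an unadjusted p of 0.05, beside 662 of all 14495 genes. Without animal 426, 28 were negative and the median was -0.06.

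No gene of fuel storage or translation passed the test. Of 31 entries in the list of glycogen and glucose handling, 4 had a symbol, and their median log2 fold change after VDR-OE was -0.64. All 4 were lower in VDR-KD, beside 649 of 1887 genes with a symbol, and their median log2 fold change was -0.31. Of these 4, 2 genes, Stbd1 and Phka1, had an unadjusted p under 0.05 with the block. Among all 14652 genes, 293 (2%) were lower at that threshold. Phka1 ran from 253 to 762 CPM (median 467) in control and from 106 to 620 CPM (median 269) in VDR-KD muscles and was lower in 6 of 7 animals, the exception being animal 425. Its log2 fold change was -0.72 ± 0.28 (SE) with the block and -0.59 without it. Without the block its unadjusted p was 0.136 in edgeR's quasi-likelihood test, and Stbd1 alone of the 4 stayed under 0.05 (0.0218). Of 16 cytosolic aminoacyl-tRNA synthetase genes, which charge tRNAs with amino acids, 14 were negative but by little, with a median of -0.06. Their median was -0.56 after VDR-OE, and 316 of the 440 genes called lower after VDR-OE were also lower in VDR-KD. Among the 16, the isoleucyl enzyme Iars had the smallest p at a log2 fold change of -0.2 ± 0.095 (SE). The median was 0.01 over 8 ribosomal protein genes and 0.04 over 5 genes of the mTOR pathway.

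The integrated stress response, the programme by which cells answer amino acid lack and misfolded protein, separated animal 423 from the others. Over its 23 tested genes the median log2 fold change was 0.05, with 14 positive and 9 negative. The mean log2 CPM of the list was between 4.15 and 4.65 in the VDR-KD legs of 6 animals and was 2.67 in that of animal 423, whose control leg had the highest level of all control legs (4.77). The mean log2 ratio was accordingly -2.1 in animal 423, and between -0.32 and 1.19 in the other 6. Without animal 423 the median was 0.25 and 19 of 23 genes were positive. The interferon response list had the same shape, with a mean log2 ratio of -2.22 in animal 423 and between 0.08 and 1.13 in the others.

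The lists that remain had few named genes and also held none past the test. Of 5 satellite cell and myogenic genes, 4 were positive with a median log2 fold change of 0.12, among them follistatin (Fst), the activin and myostatin antagonist, which was higher in 6 of 7 animals at 0.47 ± 0.22 (SE). Medians were 0.14 over 8 genes of the activin and TGF-beta axis, 0.15 over 6 immediate early and heat shock genes and -0.02 over 3 smooth muscle and pericyte markers. Psmd11, a proteasome subunit in the muscle atrophy list, had a log2 fold change of -0.06. Single genes stood for adipocytes (Cfd, 0.58), tendon (Tnc, 0.17), slow fibres (Fhl2, 0.39), denervation (Gadd45a, 0.01) and the small RNA machinery (Ran, 0.13). Neutrophil, endothelial, Schwann cell and erythroid markers had no symbol in the sources used here.

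**Figure D3:**
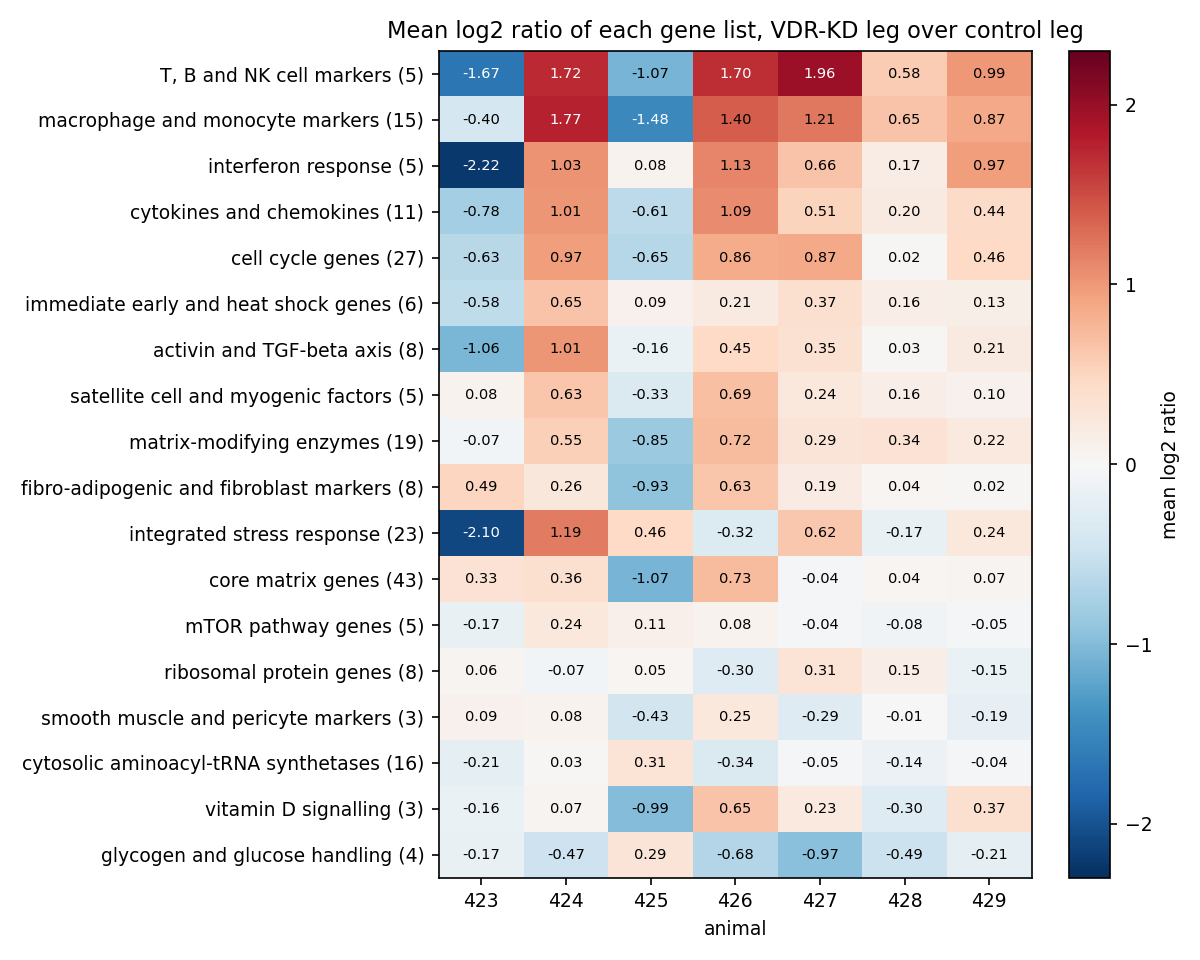
Mean log2 ratio (colour and number) of the VDR-KD leg over the control leg for each gene list with at least 3 tested genes (rows, with the number of genes) in each animal (columns). Animals 423 and 425 have negative values for the leucocyte and cell cycle lists at the top, where the other 5 are positive, and the glycogen list at the bottom is positive only in animal 425.

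The labels pair the legs by animal, but legs of 1 animal did not on average deviate together. Each leg was expressed as its deviation from the mean of its group, and deviations were correlated across the 14652 genes, which are not independent of each other. Pearson's r between the legs of 1 animal was -0.52 in animal 423, -0.27 in 424, -0.59 in 425, 0.13 in 426, -0.08 in 427, 0.32 in 428 and 0.27 in 429. The mean of these 7 was -0.107, against 0.019 over the 42 pairs of legs from different animals, and 3 of 7 exceeded 0.1. In 0 of 7 animals did the control leg correlate best with the VDR-KD leg of its own animal. The highest value, 0.76, was between the control leg of animal 429 and the VDR-KD leg of animal 423. In the VDR-OE animals the mean was 0.248 between legs of 1 animal and -0.042 between legs of different animals. Whether any leg of the shRNA animals carries the identifier of another animal was not tested, and the legs were kept as labelled.

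**Figure D4:**
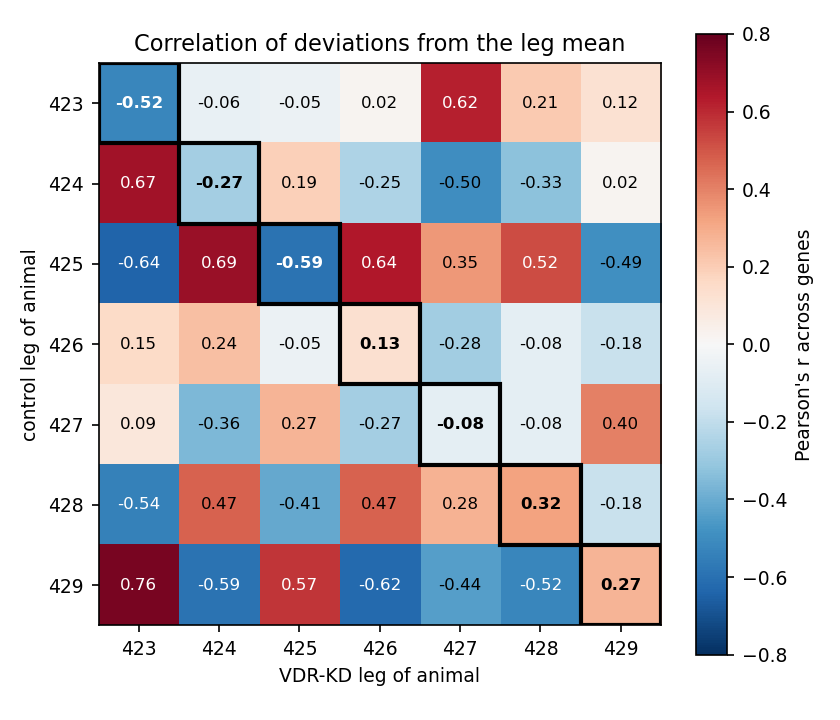
Pearson's r across genes (colour and number) between the control leg of each animal (rows) and the VDR-KD leg of each animal (columns), after subtracting the group mean. Boxed values are legs of the same animal, from -0.59 to 0.32, and other pairs run from -0.64 to 0.76.

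The last question was whether the change after shRNA differed from that after overexpression, which was tested as an interaction in 1 fit of all 28 muscles with the animal as a block. Of 15112 genes, 0 passed an adjusted p of 0.05 in edgeR's quasi-likelihood test (smallest adjusted p 0.218), and 1099 (7.27%) had an unadjusted p under 0.05. Without the block the same test called 11 genes (0.0728%), the likelihood ratio test with the block called 18 (0.119%) and DESeq2 with the block called 44 (0.291%). Vdr had the smallest p. It averaged 3.98 ± 1.46 CPM (SD, n = 7) in VDR-OE control and 2270 ± 1920 CPM (SD, n = 7) in VDR-OE muscles, where the lowest muscle was at 5.1 CPM. The VDR-KD minus VDR-OE difference of log2 fold changes for Vdr was -8.8 (adjusted p = 0.218 with the block and 3.58e-05 without it).

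The other 4 genes with the lowest p in this test had negative log2 fold changes after VDR-OE and values between 0.01 and 0.31 in the shRNA animals, where none passed the test. Fgf7, a growth factor for epithelial cells, had log2 fold changes of 0.04 ± 0.12 (SE) in VDR-KD and -1.29 in VDR-OE, a difference of 1.33. The phosphatase Ppef1, the ubiquitin ligase Rnf185 and RGD1562378 had log2 fold changes of 0.01, 0.06 and 0.31 in VDR-KD and of -3.09, -1.18 and -0.69 in VDR-OE. Rnf185 averaged 83.7 ± 33.6 CPM (SD) in VDR-OE control, 34.9 in VDR-OE, 37.2 in control and 38.7 in VDR-KD muscles. In the same order, Ppef1 averaged 4.11 ± 3.03, 0.395, 0.697 and 0.77 CPM, and Fgf7 9.23 ± 3.9, 3.57, 5.5 and 5.72 CPM. With each arm normalised by itself, VDR-OE control muscles were thus the highest and most scattered group for Rnf185, Ppef1 and Fgf7. The adjusted p of the difference was 0.218 for Fgf7 and 0.432 for the other 3 with the block, and without it Fgf7, Ppef1 and Rnf185 passed (0.0411, 0.0203 and 0.0226 in edgeR's quasi-likelihood test) and RGD1562378 did not (0.128).

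The arms share no muscle, so their log2 fold changes could be set side by side. Of the 1037 genes called in the VDR-OE comparison, 1030 were tested in the shRNA animals. Of these, 0 passed the test there and 28 (2.72%) had an unadjusted p under 0.05, beside 2.7% of all genes. The 590 that were higher after VDR-OE had a median log2 fold change of 0.62 there and of 0.18 in VDR-KD. The 440 that were lower had medians of -0.43 and -0.07. The sign was the same in both arms for 807 of the 1030 (78.3%) and for 10175 of the 14406 genes tested in both (70.6%). In both arms the right leg was the treated one, and genes are not independent replicates. The share was 87.8% without animal 425, beside 73.7% of all genes, and 65.4% without animal 426, beside 65.5% of all genes. By animal, the median log2 ratio of the genes higher after VDR-OE was between 0.22 and 0.67 in 5 animals, -0.07 in animal 423 and -0.7 in animal 425.

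**Figure D5:**
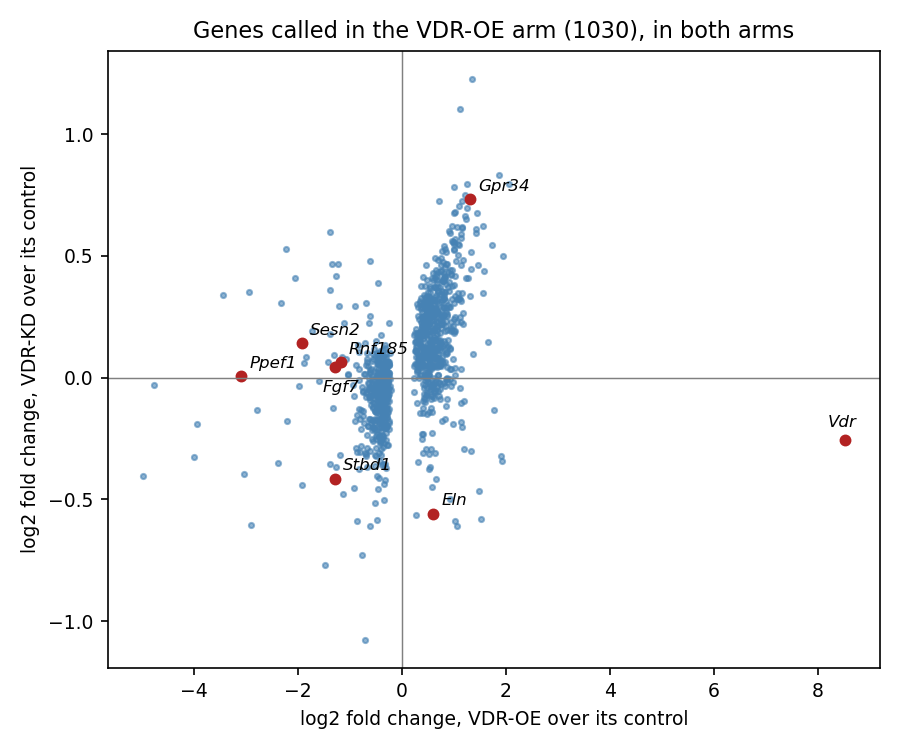
Log2 fold changes in the VDR-OE arm (horizontal axis) and the VDR-KD arm (vertical axis) for the 1030 genes called in the VDR-OE arm and tested in both; each point is a gene, and 8 are named in red. Vdr lies at 8.52 on the horizontal axis and -0.26 on the vertical one, Stbd1 is lower in both arms, and Eln is higher after VDR-OE (0.61) and lower in VDR-KD (-0.56).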

How the data were processed

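Raw counts per gene were deposited by the authors for each muscle, without normalisation, from paired-end reads (75 bp, Illumina HiSeq) that they trimmed, aligned and counted against the rat genome (version 6.0, Ensembl release 89, per the labels). The submitters' processing notes name bcl2fastq 2.17.1.14, FastQC 0.11.5 and edgeR 3.18.1. Symbols came from the study's supplementary gene table, from which no value was taken.

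Genes above the CPM of a count of 10 in at least 7 of 14 muscles were kept. They were normalised by trimmed mean of M-values and tested with edgeR 4.0.16 (quasi-likelihood test, R 4.3.3) with the animal as a block, since the labels and methods pair the legs, and again without it. P-values were adjusted by Benjamini-Hochberg over all genes kept. SEs are those implied by the test statistic, and log2 CPM use a prior count of 0.5. With the block, p-values measure how far the difference between legs varied over the 7 animals. Without it, they measure spread between muscles of a group and take the legs of an animal as independent. The correlations given with the pairing were the check of the labelled animals. Alternatives were the likelihood ratio test, DESeq2 1.42.0, other size factors and filters, a fit of all 28 muscles, leaving out each animal, and, added after seeing the data, a leucocyte covariate and counts at unadjusted p. The scripts were tested on simulated data.

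The members and gene lists were chosen with earlier results of these data known. Genes named are Vdr and its list, the 10 smallest p in each direction (none passed, so those moving one way in at least 6 of 7 animals), 5 more without the block, up to 3 per list, and 5 for the difference between arms. Genes outside this rule, namely those without a symbol and Trem2, were chosen after their values were seen. Some genes that the rule names are not reported here.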

Additional observations from a re-analysis of the deposited data

Results flagged for a closer look

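In groups of 7 muscles, the highest or lowest value was checked for a gap to its nearest neighbour that is wide for the range of the group. This was done for 212 groups of values (named genes, list means, total counts and the share of the 10 most abundant genes), of which 7 stood out, and chance alone flags about 1 group in 20. In the VDR-KD leg of animal 423, the mean log2 CPM of the integrated stress response list was 2.67 (next lowest 4.15), that of the interferon response list was 4.56 (next lowest 6.1), and Irf1, a member of the latter list, was at 29.7 CPM (next lowest 93.8). In the VDR-KD leg of animal 426, Notch3, a receptor of pericytes and smooth muscle, was at 92.4 CPM (next highest 61.7), and in its control leg Tagln, an actin-binding protein of smooth muscle, was at 83.2 CPM (next highest 58.7). Emc1 was at 62.5 CPM in the VDR-KD leg of animal 429 (next highest 53.1), and Meis3 at 4.52 CPM in the control leg of animal 424 (next highest 3.36).

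Zfp458 stood out for its direction, since it was higher in the VDR-KD leg of all 7 shRNA animals (log2 fold change 0.36) and lower in the VDR-OE leg of all 7 other animals (-0.42). It had been named for its small p and its shared direction in the shRNA animals. Its adjusted p was 0.803 in VDR-KD and 0.0613 in VDR-OE in edgeR's quasi-likelihood test with the block, so it passed in neither arm. The difference of 0.78 was tested across all genes and had an adjusted p of 0.432 in edgeR's quasi-likelihood test with the block and of 0.176 without it.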

How the results depend on the processing

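No gene was called in VDR-KD against control under any of the 17 alternatives, and Vdr kept its sign without being called (log2 fold change -0.56 to -0.01 with 1 animal left out). The number of genes at an unadjusted p of 0.05 did move. From 395 it went to 647 without the replicate block, 595 without the block and with the likelihood ratio test, 625 with DESeq2 and 1043 in the fit of all 28 muscles, and to between 162 and 2624 with 1 animal left out, the highest without animal 423 (smallest adjusted p 0.271) and next without animal 425 (1458). It was 162 without animal 424, 197 without 426, 162 without 427, 200 without 428 and 295 without 429. The split of 102 higher and 293 lower became 207 and 206 with the leucocyte covariate and the block. Without the block, 305 higher and 342 lower became 230 and 311 with that covariate. For the difference between the arms, 0 genes became 11 without the replicate block, 18 with the likelihood ratio test, 44 with DESeq2 and 1 each with no filter or the filter in at least 2 muscles, and stayed at 0 with each animal left out, where the count at an unadjusted p ran from 911 to 1852 (without animal 423) beside 1099. Without the replicate block no other call changed. The 83 named genes were followed under most of these alternatives (1245 values), and their signs with the leucocyte covariate are not reported here. Of the 83, 13 changed the sign of their log2 fold change in at least 1 of the alternatives followed and never passed the test. Tagln became 0.017 without the replicate block under either test, and Ppef1 became -0.004 with DESeq2. With 1 animal left out, the ranges that crossed 0 were -0.139 to 0.055 for Tagln, -0.267 to 0.247 for Ppef1, -0.166 to 0.236 for Gadd45a, -0.019 to 0.087 for Pdgfrb, -0.018 to 0.157 for Rnf185, -0.032 to 0.423 for Tnc, -0.256 to 0.054 for Dhcr7, -0.03 to 0.084 for Eif4g2, -0.12 to 0.019 for Psmd11, -0.089 to 0.016 for Rpsa, -0.085 to 0.037 for Rplp1, -0.04 to 0.098 for Rpl35 and -0.054 to 0.434 for Sesn2. The cause of these changes was not tested. Vdr had 54 to 418 reads per muscle, Pif1 5 to 40 and Wnt10a 2 to 74, and the effect of depth was not tested.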
